A study of Mus musculus with 6 samples.

Results

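The interleukin-1 family was followed in skeletal muscle of mdx mice through 10 listed genes, of which 8 had a probe set that the platform's annotation gives to that gene alone, out of 19752 genes named in this way. The 8 are the ligands Il1a, Il1b, Il18 and Il33, the receptor antagonist Il1rn, the decoy receptor Il1r2, the shared receptor chain Il1rap and the inflammasome sensor Nlrp3. The members are listed by name, with no value in the rule, but the list was drawn up with earlier results of these data known. Il1r1 and Il1rl1, which encode the signalling interleukin-1 receptor and the IL-33 receptor ST2, are not analysed here. IL-33 is therefore described without its receptor.

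All samples were flash-frozen skeletal muscle of mdx mice, a strain with a mutated dystrophin gene, in which muscle fibres die, regrow and are infiltrated by leukocytes. The study's title names the depletion of regulatory T cells as the question. A group of 3 samples came from mice injected intraperitoneally with an anti-CD25 monoclonal antibody, clone PC61, and a group of 3 from mice injected with rat IgG. Each mouse received 2 injections, on days 17 and 20 of age, at a dose that the design text gives as 100 mg. Dissection followed 7 days after the second injection, which is day 27, whereas the sample labels state an age of 6 weeks. CD25 is the interleukin-2 receptor alpha chain, which regulatory T cells carry in quantity and which activated T cells and group 2 innate lymphoid cells can carry too. The labels name no particular muscle and do not say that replicates are separate animals, and p-values cover only the spread between the samples, which may be technical in part.

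Interleukin-1 alpha and beta act through one receptor, which needs Il1rap as its partner chain and signals through MyD88 and NF-kB. Il1rn occupies that receptor without signalling, and Il1r2 binds the ligands without passing on a signal. Interleukin-1 beta and interleukin-18 are made as precursors that caspase-1 cuts after inflammasomes such as that of NLRP3 assemble, so their RNA level does not give the level of the active cytokine. IL-33 is stored in nuclei of stromal and other structural cells, is released on damage and is known in muscle to act on ST2-bearing regulatory T cells.

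The sequence before a gene's start site is shown for Il1b, the gene with the widest difference between the groups here, and for Il33, the ligand whose probe set stood in the upper quartile of every array. The 250 bases before each start come from RefSeq (build GRCm38.p6), 5′ to 3′ on the gene's own strand, and capitals mark the motif matches named afterwards. The Il1b window lies at chr2:129371140-129371389 on the minus strand. Its last bases overlap the outer end of the annotated gene, at 129371164. Il33 has 2 listed starts, with windows at chr19:29924863-29925112, before the gene, and at chr19:29945540-29945789, inside it, both on the plus strand.
Il1b: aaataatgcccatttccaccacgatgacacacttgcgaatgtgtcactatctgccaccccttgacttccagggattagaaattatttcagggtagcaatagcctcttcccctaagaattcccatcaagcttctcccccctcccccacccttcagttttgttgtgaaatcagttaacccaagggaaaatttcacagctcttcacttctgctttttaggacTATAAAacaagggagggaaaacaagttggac
Il33 outer start: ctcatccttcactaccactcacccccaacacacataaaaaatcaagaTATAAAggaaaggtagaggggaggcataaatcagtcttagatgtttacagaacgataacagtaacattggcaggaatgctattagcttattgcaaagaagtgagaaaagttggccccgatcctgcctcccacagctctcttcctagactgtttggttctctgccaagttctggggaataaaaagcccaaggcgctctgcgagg
Il33 inner start: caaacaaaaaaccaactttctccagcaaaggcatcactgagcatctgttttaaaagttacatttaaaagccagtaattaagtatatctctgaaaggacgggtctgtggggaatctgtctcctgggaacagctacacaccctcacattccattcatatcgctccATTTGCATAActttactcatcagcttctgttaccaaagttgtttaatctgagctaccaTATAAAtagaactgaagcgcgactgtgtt
The search covered 6 motifs on both strands: the TATA box (TATAAA), the NF-kB consensus, AP-1 (TGANTCA), C/EBP (TTGCNNAA), PU.1 (GAGGAA) and the octamer (ATGCAAAT). Over 32536 distinct windows of the same length, 12.3% held the TATA box, 5.03% the NF-kB consensus, 6.73% AP-1, 9.57% C/EBP, 23.4% PU.1 and 1.62% the octamer. In the Il1b window the single match was a TATA box that begins 31 bases before the start. The inner Il33 window held a TATA box beginning 29 bases before the start, and a C/EBP match at 85 bases that overlaps an octamer on the other strand at 87. The outer Il33 window held a TATA box alone, at 203 bases. Among the 8 members the octamer was also found before Il18, beginning at 37 and, on the other strand, at 16 bases, and before an inner start of Il1rn at 158 bases. A match is a run of letters and not a shown binding site.

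There was 1 array per sample, and their number limits the precision. The deposited intensities had medians from 149.8 to 151.5, and their lower quartiles ran from 51.2 to 57.7. All 16 measured skeletal muscle markers had a mean level above the median gene. Foxp3, the transcription factor of regulatory T cells, measured 6.60, 6.69 and 6.43 log2 units on the rat IgG arrays, in the order of their numbers. On the anti-CD25 arrays it measured 6.42, 6.41 and 6.61, and the groups overlapped. Il2ra, which encodes CD25, measured 5.57, 5.71 and 5.73 with rat IgG and 5.71, 5.76 and 5.53 with anti-CD25. Its groups overlapped too, and its probe set lay below the lower quartile on 3 arrays. Xist, the RNA of the inactive X chromosome, was high on 4 arrays and low on 2, rat IgG 3 and anti-CD25 3, although every sample is labelled male. Eif2s3y, a gene of the Y chromosome, measured 3.77, 3.47 and 9.16 with rat IgG and 3.62, 3.68 and 9.22 with anti-CD25. Uty, another such gene, was likewise low on the 4 high-Xist arrays and high on the other 2. By these genes the 4 high-Xist arrays read as female, against their label, and the 2 low-Xist arrays as male. The contrast is therefore also given within the 4 high-Xist arrays and between the 2 low-Xist arrays. For Foxp3, anti-CD25 minus rat IgG was -0.23 and 0.18 in that order, the latter without a replicate.

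Il1b was the member whose groups stood farthest apart, and it was lower with anti-CD25. Its log2 intensity was 6.42, 6.49 and 6.94 on rat IgG 1, 2 and 3, against 6.13, 6.44 and 5.89 on anti-CD25 1, 2 and 3. The highest array was rat IgG 3 and the lowest anti-CD25 3, which are the 2 arrays with low Xist. The groups overlapped, because anti-CD25 2 lay between rat IgG 1 and rat IgG 2. Under rat IgG the mean was 6.62 ± 0.28 (SD, n = 3), and under anti-CD25 it was 6.15 ± 0.28 (SD, n = 3), a 1.38-fold lower intensity. The difference, anti-CD25 minus rat IgG here and throughout, was -0.46 (SE 0.17, 95% interval -0.85 to -0.076). It did not pass limma's test over all genes (adjusted p = 0.750, unadjusted p = 0.0241), and an exact permutation test (two-sided) gave p = 0.2, where 3 against 3 arrays cannot go below 0.1. In bulk muscle, fewer cells that make a transcript and less of it per cell cannot be told apart.

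The Il1b difference was -0.17 within the 4 high-Xist arrays and -1.05 between the 2 with low Xist. The gap between these values was -0.89, and an interaction term for it, added after the values were seen, did not pass (limma adjusted p = 0.0716, unadjusted p = 0.0022). The low-Xist contrast is 1 array against 1 with no replicate, so the spread behind every interaction p given here comes from the 4 high-Xist arrays alone and these p-values show little about the low-Xist arrays. Of all genes, 19.4% had an unadjusted interaction p under 0.05 in that fit, and 0.0405% passed. Without rat IgG 3 the Il1b difference was -0.30, and without anti-CD25 2 it was -0.61. The 1975 genes of like mean level had a median difference of -0.058.

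**Figure D1:**
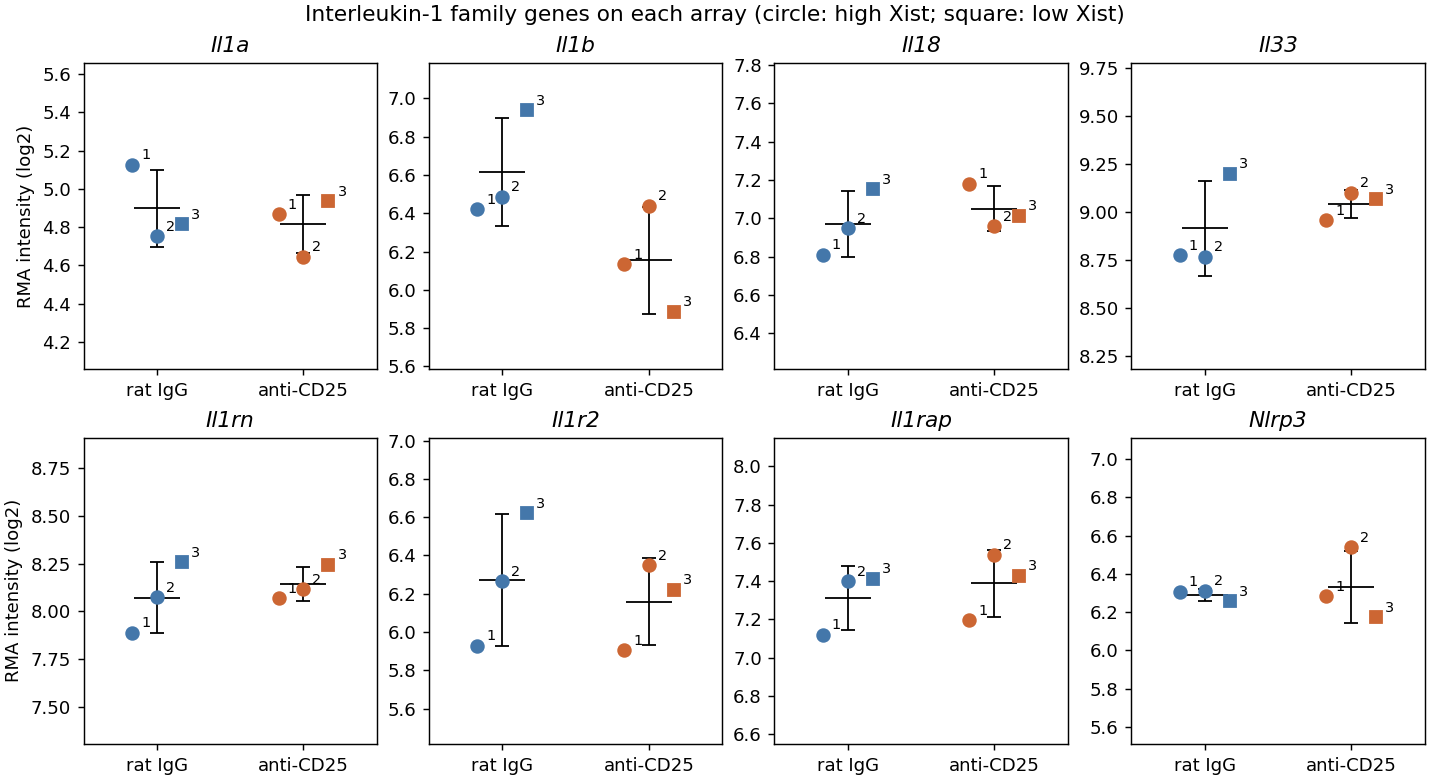
Log2 RMA intensity of the 8 interleukin-1 family genes (y axes, each spanning the same range around its own mean) on the 3 rat IgG and 3 anti-CD25 arrays; numbers are replicate numbers, squares the arrays with low Xist, bars the mean and SD (n = 3). Il1b runs from 5.89 on anti-CD25 3 to 6.94 on rat IgG 3, and the groups overlap in all 8 genes.

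The other ligands differed by at most 0.13 log2 units. Il33, the alarmin of structural cells, measured 8.77, 8.77 and 9.20 on rat IgG 1, 2 and 3, against 8.96, 9.10 and 9.07 on anti-CD25 1, 2 and 3. Rat IgG 1 and 2 were the lowest 2 arrays and rat IgG 3 the highest, so the anti-CD25 arrays sat inside the rat IgG range. The difference was 0.13 (SE 0.12, 95% interval -0.15 to 0.41, limma adjusted p = 0.824). It was 0.27 without rat IgG 3, 0.26 within the 4 high-Xist arrays and -0.13 between the low-Xist pair, where the last value has no replicate. Il33 was above the upper quartile on all 6 arrays. Il18, the other caspase-1 substrate, measured 6.81, 6.95 and 7.15 with rat IgG and 7.18, 6.96 and 7.01 with anti-CD25. Its difference was 0.080 (SE 0.11, 95% interval -0.17 to 0.33), with 0.19 within the high-Xist arrays and -0.14 between those with low Xist. Il1a measured 5.13, 4.75 and 4.82 with rat IgG and 4.87, 4.65 and 4.94 with anti-CD25, a difference of -0.082 (SE 0.12, 95% interval -0.36 to 0.19) that turned to 0.0038 after a second quantile normalization. Its probe set lay below the lower quartile on all 6 arrays, among genes whose median difference was -0.080, and RMA understates differences of dim probe sets.

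Transcripts of the antagonist and of the decoy receptor differed by at most 0.11 log2 units. Il1rn, the receptor antagonist, measured 7.89, 8.07 and 8.26 on rat IgG 1, 2 and 3, against 8.07, 8.12 and 8.24 on anti-CD25 1, 2 and 3. Only rat IgG 1 lay below the range of the anti-CD25 arrays, and rat IgG 3 lay just above it. The difference was 0.070 (SE 0.11, 95% interval -0.17 to 0.31), and it was -0.022 without rat IgG 1. Il1r2, the decoy receptor, measured 5.93, 6.26 and 6.62 with rat IgG and 5.91, 6.35 and 6.22 with anti-CD25. Its rat IgG values had the widest spread of any member (SD 0.35, n = 3), with rat IgG 3 on top. The difference was -0.11 (SE 0.18, 95% interval -0.51 to 0.29), and it turned to 0.062 without rat IgG 3.

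Il1rap, the partner chain that the interleukin-1 and IL-33 receptors share, measured 7.12, 7.40 and 7.41 with rat IgG and 7.20, 7.54 and 7.43 with anti-CD25. Replicate 1 was the lowest array of each group, and the difference was 0.077 (SE 0.12, 95% interval -0.19 to 0.35). Nlrp3, the sensor that starts inflammasome assembly, measured 6.31, 6.31 and 6.26 with rat IgG and 6.28, 6.54 and 6.17 with anti-CD25. The rat IgG arrays were close together (SD 0.031, n = 3), and anti-CD25 2 and 3 lay on either side of them. The difference was 0.040 (SE 0.10, 95% interval -0.20 to 0.27).

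None of the 8 members passed limma's test, at adjusted p from 0.750 to 0.943, and over all genes 0% passed. At an unadjusted p under 0.05 there was 1 member, Il1b, against 6.28% of all genes. No member had groups without overlap, against 11.7% of all genes. Of the 8, 5 were higher and 3 lower, with a median difference of 0.055, where 41.1% of all genes were higher, 58.9% were lower and the median was -0.026. The 95% intervals of the members, which are not adjusted for the number of genes, reached 0.24 to 0.40 log2 units to each side, and the Il1b difference exceeded its own 0.39 without passing. In 6 of the 8 members the sign within the high-Xist arrays was opposite to that between the arrays with low Xist, which are 1 against 1, as in 56.9% of all genes. The interaction term passed for 0 of the 8.

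**Figure D2:**
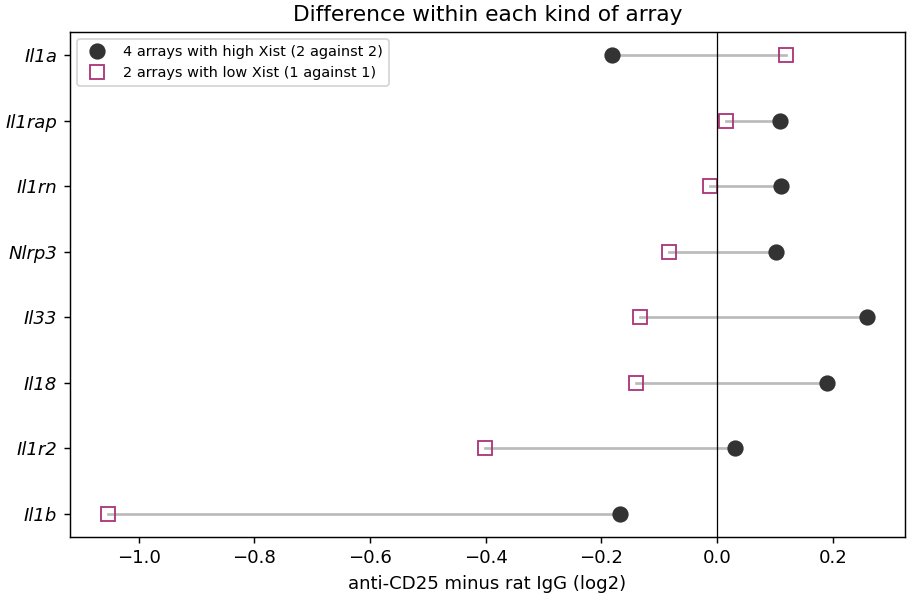
Anti-CD25 minus rat IgG (x axis, log2) for each member, within the 4 arrays with high Xist (filled circles, 2 against 2) and between the 2 arrays with low Xist (open squares, 1 against 1, no replicate). Il1b lies below 0 in both, at -0.17 and -1.05, and Il1rap above 0 in both, while the other 6 change sign.

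Among 12 further family genes, 8 were measured and 0 passed in either direction. The 4 higher and 4 lower genes had a median difference of -0.011. Il18rap, the accessory chain of the interleukin-18 receptor, measured 5.99, 5.46 and 5.91 on rat IgG 1, 2 and 3, against 6.04, 6.28 and 6.20 on anti-CD25 1, 2 and 3. Every anti-CD25 array was above every rat IgG array, as in 4.28% of all genes, with a difference of 0.39 (SE 0.14, limma adjusted p = 0.750). The narrowest gap between the groups was that of rat IgG 1 and anti-CD25 1, and the mean level of Il18rap was among the dimmest 30% of genes. Il18r1, the ligand-binding chain of the same receptor, differed by 0.056, with its probe set below the lower quartile on all 6 arrays. Il18bp, the soluble inhibitor of interleukin-18, differed by 0.075. Il1rl2, the interleukin-36 receptor, differed by 0.27 (SE 0.14) and Sigirr, an inhibitory relative of the receptors, by -0.16 (SE 0.13). Groups without overlap in the lower direction were found for 2 dim genes, Il1f10, which encodes the ligand IL-38, at -0.20 (SE 0.086) and the neuronal receptor relative Il1rapl1 at -0.18 (SE 0.084), as in 7.46% of all genes.

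Genes of the inflammasome and of interleukin-1 processing were mostly higher with anti-CD25, in contrast to Il1b, although 0 of 18 passed. Of these, 14 were higher and 4 lower, with a median difference of 0.14, where 41.1% of all genes were higher and 58.9% lower. Groups did not overlap for 2 higher genes and 1 lower gene of the list, against 4.28% and 7.46% of all genes. Casp1, the protease that cuts the precursors of interleukin-1 beta and interleukin-18, measured 6.42, 5.98 and 6.22 with rat IgG and 6.80, 6.55 and 6.47 with anti-CD25. Its groups did not overlap, and the difference was 0.40 (SE 0.13, limma adjusted p = 0.750). Naip2, a sensor of bacterial secretion systems, measured 7.61, 6.91 and 7.66 with rat IgG and 8.41, 7.75 and 8.10 with anti-CD25, a difference of 0.69 (SE 0.22, limma adjusted p = 0.750) without overlap. Its close relative Naip5 differed by 0.47 (SE 0.18), and probes for such related genes may share signal. Pycard, the adaptor that links sensors to caspase-1, differed by 0.23 (SE 0.11), the caspase Casp4 by 0.31 (SE 0.20) and the pore protein Gsdmd by 0.038 (SE 0.075). For Casp4, whose highest array was rat IgG 3, the difference was 0.60 within the high-Xist arrays. Between the low-Xist pair it was -0.27, without a replicate. The median difference of the list was 0.16 and 0.20 in the same order. Txnip, which can bind NLRP3, was lower without overlap, at -0.21 (SE 0.079), as were 7.46% of all genes.

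Monocyte and macrophage markers were also mostly higher with anti-CD25. Of 21 measured markers 20 were higher, where 41.1% of all genes were, with a median difference of 0.31, and 0 passed. Their list mean, relative to the mean of the 6 arrays, was -0.073, -0.45 and 0.00099 on rat IgG 1, 2 and 3, against 0.37, -0.073 and 0.23 on anti-CD25 1, 2 and 3. The inflammasome list mean was -0.0080, -0.18 and -0.060 and 0.18, -0.034 and 0.099 in the same order. In both lists rat IgG 2 was the lowest array, anti-CD25 1 the highest and anti-CD25 3 the next highest, while the order of the other 3 arrays differed. Mertk and Cd163, receptors of macrophages for dying cells and for haemoglobin, differed by 0.71 (SE 0.16) and 0.51 (SE 0.12). The macrophage median was 0.21 without rat IgG 2 and 0.46 without rat IgG 3. The part of macrophage content in the values of Casp1, Naip2 and the other genes was not tested.

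**Figure D3:**
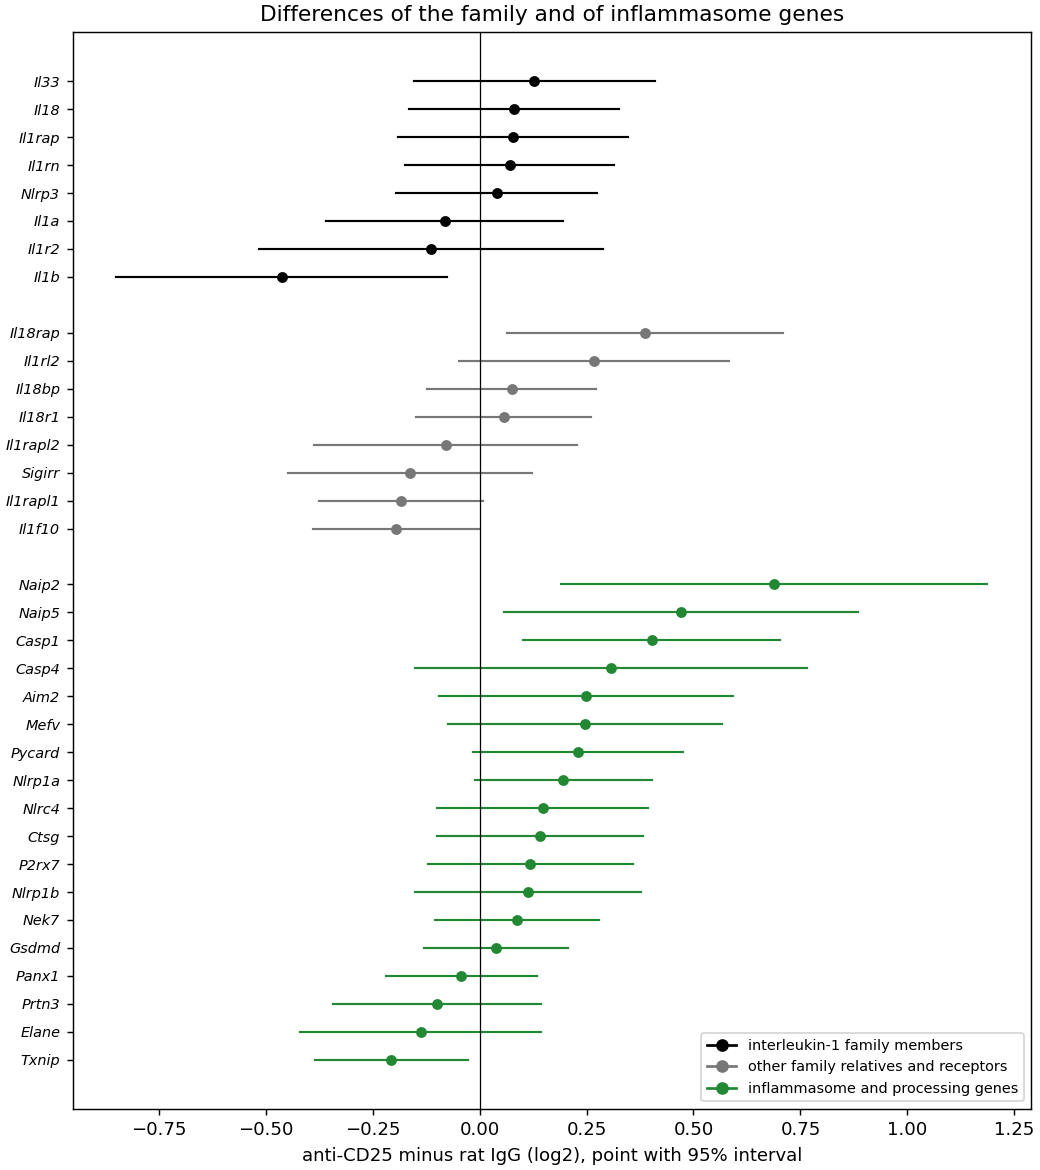
Anti-CD25 minus rat IgG (x axis, log2) with limma's 95% interval for the 8 members (black), 8 other family genes (grey) and 18 inflammasome and processing genes (green), from 3 arrays a group. Il1b at -0.46 is the lowest of all points, while Casp1 at 0.40 and Naip2 at 0.69 lie on the other side of 0.

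The genes that carry the signal inside the cell showed small differences. Of 16 measured genes of the receptor pathway 8 were higher and 8 lower, with a median of 0.0064, and 0 passed. They ranged from -0.11 for Tab1 to 0.20 for Peli1, a ubiquitin ligase of the pathway. Irak3, an inhibitor of the receptor complex, differed by 0.14 (SE 0.081) and the adaptor Myd88 by 0.11 (SE 0.11).

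Targets of interleukin-1 and NF-kB were split, with 12 of 30 higher, 18 lower and a median difference of -0.063, and 0 passed. The median turned to 0.046 without rat IgG 3. At an unadjusted p under 0.05 there were 6 lower and 0 higher genes, where the shares of all genes were 3.98% and 2.3%. Tnfaip3, the feedback inhibitor A20, measured 7.47, 7.54 and 7.44 with rat IgG and 7.26, 7.05 and 7.19 with anti-CD25. It was among 5 lower targets whose groups did not overlap, against 0 higher ones, where the shares of all genes were 7.46% and 4.28%. The Tnfaip3 difference was -0.32 (SE 0.086, limma adjusted p = 0.750), with -0.35 within the high-Xist arrays and -0.26 between the low-Xist pair. Tnf differed by -0.33 (SE 0.12), with -0.31 and -0.39 in the same order. Il6 lay between 4.45 and 5.16 on 5 arrays, below the lower quartile of each, and at 6.76 on rat IgG 3. It was chosen after its values were seen. Its difference was 0.62 within the high-Xist arrays and -2.09 between the low-Xist pair, and the interaction term of -2.71 passed (limma adjusted p = 0.00176), with no replicate in the low-Xist contrast.

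Rat IgG 3 had the highest value of 4 of the 8 members, Il1b, Il33, Il1rn and Il1r2, where it was the highest array for 17.5% of all genes. It was also the highest for 15 of the 30 targets and for 17 of 19 immediate early and heat shock genes, whose transcripts appear soon after stress or tissue handling. The list mean of the latter was -0.37, -0.067 and 0.51 on the rat IgG arrays and -0.014, 0.055 and -0.11 on the anti-CD25 arrays, by number. Between the groups 10 of these 19 genes were higher and 9 lower, with a median difference of 0.021, and 0 passed. The 2 with the largest statistic were both lower: Egr1, a transcription factor, differed by -0.58 (SE 0.24) and Ier2 by -0.29 (SE 0.13). Within the high-Xist arrays the list's median difference was 0.22 while that of Il1b was -0.17, and between the arrays with low Xist the values were -0.52 and -1.05. The part of this early response in the Il1b values was not tested.

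**Figure D4:**
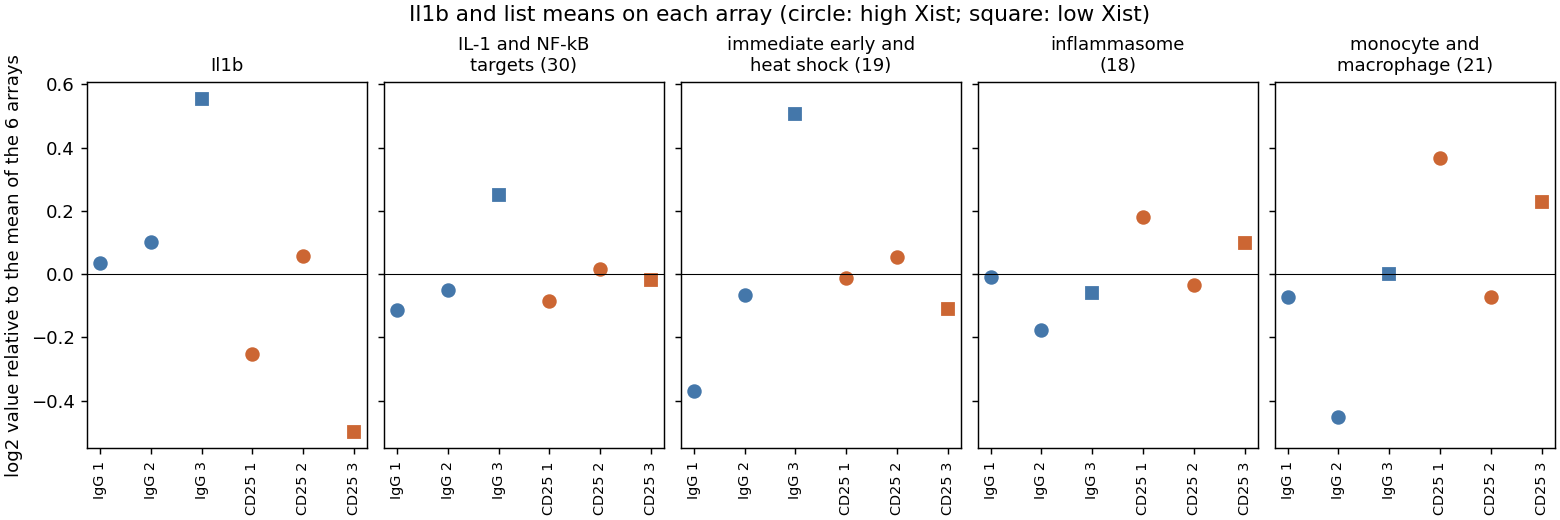
Log2 value relative to the mean of the 6 arrays (y axis) for Il1b and for the list means of interleukin-1 and NF-kB targets, immediate early and heat shock genes, inflammasome genes and macrophage markers, with each array on the x axis and squares for low Xist. Rat IgG 3 is the highest array in the first 3 panels and anti-CD25 1 in the other 2.

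Markers of cells that can make or receive these cytokines were measured alongside. Neutrophil markers had 6 of 14 higher and 8 lower, a median of -0.041 and 0 passed. S100a8 and S100a9 had mean rat IgG levels of 6.17 and 6.25, below every array's median. The neutrophil list mean was highest on rat IgG 3, at 0.13, and next on anti-CD25 2, at 0.11. The part of neutrophil content in the Il1b and Il1r2 values was not tested. Mmp8 of that list differed by 0.42 (SE 0.14) and Camp by -0.21 (SE 0.089). Mast cell markers, from cells that carry ST2, had 5 of 13 higher and a median of -0.023, with Kit at -0.35 (SE 0.12) and Hdc at 0.15 (SE 0.10). Of 19 measured type 2 and innate lymphoid genes 4 were higher and 15 lower, with a median of -0.11, and 10 of the 19 were among the dimmest 30% of genes, whose median difference was -0.080. Il5, the eosinophil growth factor, differed by -0.46 (SE 0.12) at a dim level, and Il7r, a receptor chain of lymphocytes, by 0.83 (SE 0.19). Groups did not overlap for 1 higher gene of that list, Il7r, and for 3 lower ones, against 4.28% and 7.46% of all genes. Those lower ones, Il5, Gata3 and Il17rb, were all among the dimmest 30% of genes. The regulatory T cell markers had 4 of 15 higher and a median of -0.078. That median was -0.062 within the high-Xist arrays and 0.079 between the low-Xist pair, the latter without a replicate. Ctla4 differed by -0.21 (SE 0.079), below the lower quartile on all 6 arrays, and the ectoenzyme Entpd1, also found on macrophages, by 0.32 (SE 0.11). Stromal markers, from cells that hold IL-33, had 6 of 16 higher and a median of -0.034, with Lox at 0.14 (SE 0.087) and Gsn at -0.17 (SE 0.11). Endothelial markers had 3 of 12 higher and a median of -0.021, with Kdr at -0.27 (SE 0.12) and Cldn5 at -0.24 (SE 0.12). Skeletal muscle markers had 3 of 16 higher and a median of -0.034, with Ryr1 at -0.13 (SE 0.085) and Myh7 at -0.35 (SE 0.30). Of all genes, 41.1% were higher. No gene of any of these lists passed. After a second quantile normalization the median turned to 0.028 for neutrophil and 0.030 for mast cell markers, to 0.037 for the further family genes and to -0.015 for the receptor pathway.

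The genes whose pattern over the 6 arrays was most like that of Il1b were Arhgef11, Lamc1, Tmem214, Cpped1 and Abcc1, with Pearson correlations from 0.989 down to 0.976. Their values spanned 0.13 to 0.19 log2 units over the arrays, where Il1b spanned 1.05. Most like Il33 were Gtf3c3, Klf6, Usp6nl, Abhd2 and Cmpk1, with correlations from 0.997 to 0.988. Among these Klf6, a transcription factor induced early after stimulation, had the widest range, from 8.90 on rat IgG 2 to 9.50 on rat IgG 3. These correlations describe 6 arrays and were taken as the highest of many genes.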

How the data were processed

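Expression was measured on 6 Affymetrix arrays, 3 per group. The deposited values are intensity values on a linear scale for 24922 probe sets, made by the authors with RMA in Affymetrix Power Tools per the submitters' processing notes; its version was not given in the sources used here. RMA draws dim probe sets together. The test was planned on log2 values, so log2 was taken without a pseudocount. Probe sets were named by the platform annotation (21425 with 1 symbol, 1399 with several, 2098 not listed), and the probe set with the highest mean stood for a gene. Each member had 1 probe set. Il1r1 and Il1rl1 are not analysed here.

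Groups follow the titles. All 19752 genes were fitted with limma 3.58.1 in R 4.3.3 (lmFit, eBayes, two-sided, Benjamini-Hochberg, threshold 0.05). The fit was checked on simulated independent values with changes wider than that of any member. That check does not cover differences of the members' size. The interaction with Xist level was added later. Lists are described by counts and medians: 217 of 230 entries were measured in 13 lists. The members and lists were chosen with earlier results of these data known. Named are the members, the 2 genes of each list with the largest statistic, the 5 genes most correlated with Il1b and Il33 above the 30th percentile, Foxp3, Xist and others by role, chosen with values seen. Alternatives were renormalization, median centring, a variance trend, weights per array, removal of genes under the 30th or 50th percentile, the mean of probe sets, a pseudocount of 16, a replicate block, an Xist term, the arrays with high or low Xist, and each array left out.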

Additional observations from a re-analysis of the deposited data

Results flagged for a closer look

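Il6, Egr2 and Zfp36 were flagged among the measured list genes because their contrast differed between the high-Xist and the low-Xist arrays. How many genes were flagged is not read as a result about the lists. The lists were chosen with earlier results of these data known. The interaction term, low-Xist minus high-Xist, was -2.71 for Il6, -1.61 for Egr2 and -1.59 for Zfp36. Rat IgG 3 had the highest value of each, and Il6 lay below the lower quartile on the other 5 arrays. The low-Xist contrast is 1 array against 1, so any spread behind these terms comes from the 4 high-Xist arrays alone.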

How the results depend on the processing

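No member passed limma's test under any of the alternatives run. Among all genes 0 passed, with a range of 0 to 7 when 1 array was left out; the 7 appeared without rat IgG 3 and held no member. Il1b stayed below 0 in all 17 alternatives, from -1.05 to -0.17, at limma adjusted p from 0.345 to 0.9996. A variance trend, removal of genes under the 30th percentile and the mean of probe sets could not change its difference of -0.46. A replicate block and an Xist term, both balanced between the groups, could not change it either. These settings therefore do not test its direction. With 1 array left out the Il1b difference ran from -0.61 to -0.30. Small differences changed sign. After a second quantile normalization Il1a was 0.0038. Within the arrays with high Xist Il1r2 was 0.030. Between the arrays with low Xist Il1a was 0.12, Il1rn -0.012, Il18 -0.14, Il33 -0.13 and Nlrp3 -0.083. With 1 array left out the ranges were -0.15 to 0.033 for Il1a, -0.28 to 0.062 for Il1r2, -0.022 to 0.16 for Il1rn, -0.018 to 0.17 for Il1rap and -0.063 to 0.12 for Nlrp3. The cause was not tested. List medians near 0 (targets, further family genes, receptor pathway, type 2, mast cell, neutrophil, endothelial and immediate early genes) changed sign in at least 1 alternative. The macrophage median stayed between 0.21 and 0.46 and the inflammasome median between 0.11 and 0.22. With the titles' number as replicate block Il1b was -0.46 (limma adjusted p = 0.865) and 0 genes passed. Same-numbered arrays did not deviate together across genes (correlations 0.030, -0.0067 and -0.17), but these few values cannot exclude a pairing. By Xist the numbers matched, with 1 and 2 high and 3 low in both groups. The main fit took no pairs, and the block changed no call. Il1a could not be given above the 30th percentile, nor Il1b, Il18, Il1r2 and Nlrp3 above the 50th. Dim signal limits Il1a most.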
